A study of Mus musculus with 12 samples.

Results

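Polycomb repressive complex 1 was examined through 9 of its genes: the chromobox genes Cbx2, Cbx6, Cbx7 and Cbx8, the Polycomb ring finger genes Bmi1 and Pcgf2, the ubiquitin ligase genes Ring1 and Rnf2, and the polyhomeotic gene Phc1. Each gene was taken from the one probe set annotated with its symbol alone, and 8 of the 9 had such a probe set among 28853. The only probe set that lists Cbx6 also lists other genes, so Cbx6 has no value here. The set was selected on the measured difference of Cbx7, which stood among the lowest genes of fibroblasts without telomerase reverse transcriptase. That comparison is therefore given as a description, with no p-value.

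Signals had been measured on microarrays in embryonic fibroblasts grown to passage 5, with 12 cultures in all and 3 in each group. All came from male C57BL/6J mouse embryos (E12.5-14.5), and none was treated. The groups were mTERT KO, which lacks telomerase reverse transcriptase, and its wild type mTERT WT, and mTR KO, which lacks the telomerase RNA, and its wild type mTR WT. Both knockouts were of the first generation (G1), and the wild types were littermates within each of 3 independent sets, so no group had passed through generations without telomerase. Levels are given as log2 signals, and a difference is the knockout level minus that of the wild type.

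Polycomb repressive complex 1 is a chromatin complex that places ubiquitin on histone H2A and compacts chromatin at silenced developmental genes. In its canonical form a chromobox protein reads the histone mark laid down by Polycomb repressive complex 2, a ring finger protein and a RING1 ligase form the catalytic core, and a polyhomeotic protein links complexes together. In fibroblasts the complex is best known for silencing the Ink4a/Arf locus, the gene Cdkn2a, whose products stop the cell cycle in senescence. Bmi1 and Cbx7 are both known as repressors of that locus.

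The RefSeq promoter table (GRCm38.p6) held 8 of the 9 symbols. The 250 bases before the annotated start of Cbx7, on which the choice of genes turned, and of Cbx8, the member with the largest difference in the mTR line, are shown because CG-rich sequence is the usual setting of Polycomb binding. Both genes lie on the minus strand, and the windows are chr15:79932647-79932896 and chr11:119040914-119041163. The letters run 5′ to 3′ on the gene's strand, with each CG dinucleotide in capitals.
Cbx7: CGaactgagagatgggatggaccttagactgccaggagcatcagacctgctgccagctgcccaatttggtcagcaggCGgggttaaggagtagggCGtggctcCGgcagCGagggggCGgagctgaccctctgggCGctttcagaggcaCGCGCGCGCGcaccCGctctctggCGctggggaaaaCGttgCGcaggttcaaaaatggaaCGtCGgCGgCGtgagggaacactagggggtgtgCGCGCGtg
Cbx8: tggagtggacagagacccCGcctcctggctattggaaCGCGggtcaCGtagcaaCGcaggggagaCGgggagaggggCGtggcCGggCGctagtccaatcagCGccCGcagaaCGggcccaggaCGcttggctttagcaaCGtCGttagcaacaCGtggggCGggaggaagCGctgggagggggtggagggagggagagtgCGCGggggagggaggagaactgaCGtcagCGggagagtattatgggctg
The Cbx7 window held 23 CG dinucleotides and the Cbx8 window 22, against a median of 6 over all 32851 promoter windows of this length. Cbx6, Bmi1, Ring1 and Rnf2 held 20, 21, 30 and 20, while Pcgf2 held 5 and Phc1 held 8. Thus 6 of 8 windows held at least 10, as did 37.8% of all windows. CG reads the same on both strands. The arrays did not measure binding or methylation, so these letters are a description of the genes only.

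Marker genes were read as a check of the labelled cell type. All 10 fibroblast markers, among them Col1a1, Pdgfrb and Dcn, lay above background in every culture. In none did 4 of 5 endothelial and 3 of 4 pluripotency or germ cell markers lie above it. The remaining markers of these lists were Emcn, above background in 3 cultures, and Nanog, above it in every culture. Of the neural and glial markers 3 of 5 (Tubb3, Sox10 and Nes) were above background in every culture, with a list mean from 5.98 to 6.79, and of the epithelial markers 1 of 6 (Krt8) was above it in every culture and 2 of 6 in none. Background was set per array as the 95th percentile of the 1035 odorant receptor probe sets, which lay between 4.93 and 5.09. Macrophage markers were present in all cultures, with 13 of 14 above background in each array. Their mean signal ran from 7.31 to 9.05 in mTERT KO, 7.60 to 9.14 in mTERT WT, 7.39 to 9.37 in mTR KO and 6.57 to 8.54 in mTR WT cultures. Tert read at most 4.99 in mTERT KO cultures and at least 5.51 elsewhere. Terc was above background in no culture, so the arrays do not check the mTR label. Fewer cells of a type and less RNA per cell cannot be told apart in these bulk samples.

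Cbx7, a compact chromobox protein that binds trimethylated histone H3 lysine 27, was read close to background throughout. Its level was 4.97, 4.97 and 4.85 in the mTERT knockouts, cultures 1 to 3, against 5.13, 5.17 and 5.15 in their wild types. In the mTR knockouts it was 5.05, 4.98 and 4.98, against 4.98, 5.15 and 5.11 in the wild types. All 3 mTERT KO values lay below all 3 mTERT WT values, while the mTR groups overlapped. Against the odorant receptor level of the same array, Cbx7 was higher in 3 of 3 mTERT WT and 3 of 3 mTR WT cultures. It was higher in 1 of 3 mTERT KO and 1 of 3 mTR KO cultures. The mTERT counts rest on the contrast that chose Cbx7. In the mTR line WT culture 1 (4.983 against 4.968) and KO culture 2 (4.978 against 4.989) lay close to the level, so nothing is read from these counts. In mTERT KO culture 3 Cbx7 exceeded 86.7% of odorant receptors, and in mTR WT culture 2, where it stood highest among them, 97.7%.

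**Figure D1:**
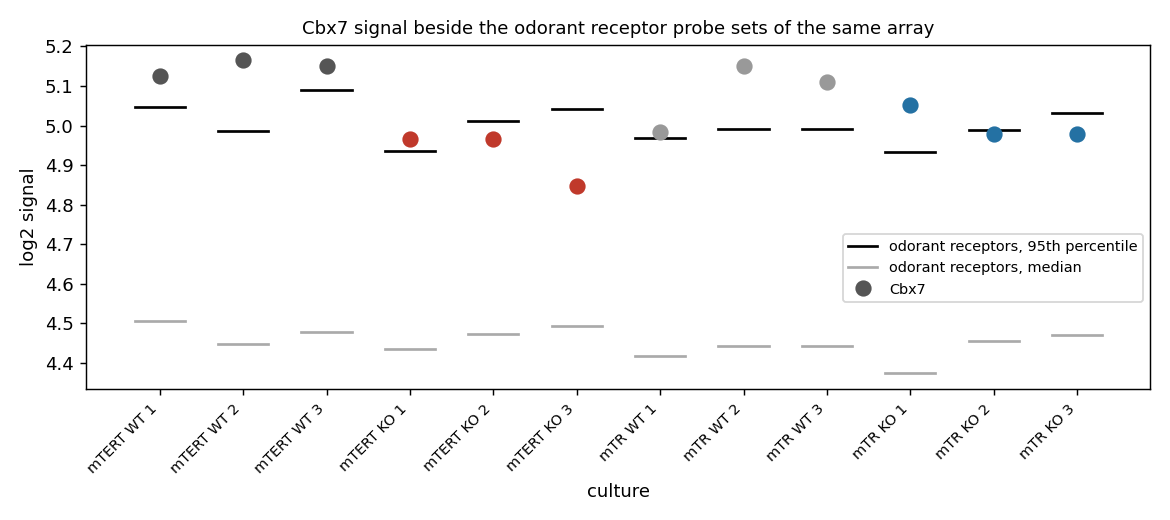
Log2 signal of Cbx7 (points, coloured by group) in each of the 12 cultures, beside the median (grey line) and the 95th percentile (black line) of 1035 odorant receptor probe sets on the same array. Cbx7 lies above the black line in 8 of 12 cultures, by 0.18 or less, and below it in 4 knockout cultures.

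The mTERT pairs of Cbx7, which chose the gene, differed by −0.16, −0.20 and −0.30, with a mean of −0.22 ± 0.074 (SD, n = 3 pairs). On the linear scale the knockout signal was 0.858 times that of the wild type. Ordered by moderated t, which describes the choice, it stood at place 15 from the bottom of 28853 probe sets. With the values below background placed at background, an alternative chosen after seeing the data, the mean was −0.14, smaller by a factor above 1.5. The mean pair difference of 95% of the odorant receptor probe sets lay between −0.19 and 0.17. Most of these probe sets read below Cbx7 on every array. The range does not test Cbx7, which was chosen for its low value. In 3.09% of all probe sets every mTERT knockout was lower than every wild type, and nothing is read from it for Cbx7, which was chosen on this contrast.

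The comparison that did not choose the gene gave no call for Cbx7. In mTR KO cultures it differed by −0.078 ± 0.064 (SE, n = 3 cultures per group, limma, adjusted p = 0.859), with a 95% interval from −0.22 to 0.063. The lower end of that interval, −0.219, lay just above the mean of the mTERT pairs, −0.222. That mean chose the gene, so nothing is read from their closeness. The spread behind the interval was pooled over all 4 groups, so it includes the mTERT cultures that chose Cbx7. With the 6 mTR arrays alone the unadjusted p was 0.319, against 0.247 in the main fit (limma). The mTERT effect was 0.14 lower than the mTR effect, a value that uses the choosing contrast and was not tested. Over alternatives the mTR difference ran from −0.13 to −0.044 and its adjusted p from 0.550 to 0.993.

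The other chromobox genes with a value, Cbx2 and Cbx8, were well above background in all 12 cultures. Cbx8, a chromobox protein of canonical complexes, stood at 6.80, 6.46 and 6.67 in the mTR knockouts, cultures 1 to 3, against 6.90, 6.90 and 6.89 in their wild types. The mTERT knockouts read 6.83, 6.49 and 6.67 and their wild types 6.84, 6.40 and 6.80. All 3 mTR WT cultures lay above the other 9, with a standard deviation of 0.006 among them, against 0.17 in mTR KO and 0.24 in mTERT WT. The mTR difference was −0.25 ± 0.13 (limma, adjusted p = 0.840), with a 95% interval from −0.53 to 0.037. The spread was pooled over all 4 groups without pairs, so variation between the mTERT pairs entered this interval. With the 6 mTR arrays alone the unadjusted p was 0.036 and the adjusted p 0.830 (limma). The exact permutation test gave p = 0.1, the smallest possible for 3 against 3, two-sided.

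Cbx8 was the only one of the 8 genes whose mTR groups did not overlap, and 11.4% of all probe sets had such groups, with the knockouts lower in 6.07% of all. The value depended on single cultures. Without mTR KO culture 2 the difference was −0.15, and without mTR KO culture 1 it was −0.33. In 5 of 22 alternatives the unadjusted p of Cbx8 fell below 0.05, namely with the fixed replicate block, with array weights, with the 6 mTR arrays alone, without mTR KO culture 1 and without mTERT WT culture 2. Its adjusted p with limma ran from 0.353 to 0.990 over the alternatives. In the same cultures the mean of 9 genes of dividing cells was 8.63, 8.07 and 7.66 in the knockouts, against 8.05, 7.73 and 7.86 in the wild types, and the part of these and of the macrophage markers in the Cbx8 difference was not tested. In the mTERT pairs Cbx8 differed by −0.010, 0.087 and −0.13, in no common direction.

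Cbx2, the chromobox protein that compacts nucleosomes, stood at 6.76, 6.33 and 6.49 in the mTERT knockouts, against 6.87, 6.46 and 6.77 in their wild types. The pairs differed by −0.11, −0.13 and −0.28, all downward, with a mean of −0.17 ± 0.094 (SD, n = 3 pairs). Cbx2 thus ran in the same direction as Cbx7 in each pair, but its groups overlapped, since pair 1 was high and pair 2 low in both genotypes. The mTR knockouts read 6.67, 6.41 and 6.59 and the mTR wild types 6.63, 6.56 and 6.62. That difference was −0.044 ± 0.13 (limma, adjusted p = 0.961), with a 95% interval from −0.32 to 0.23.

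**Figure D2:**
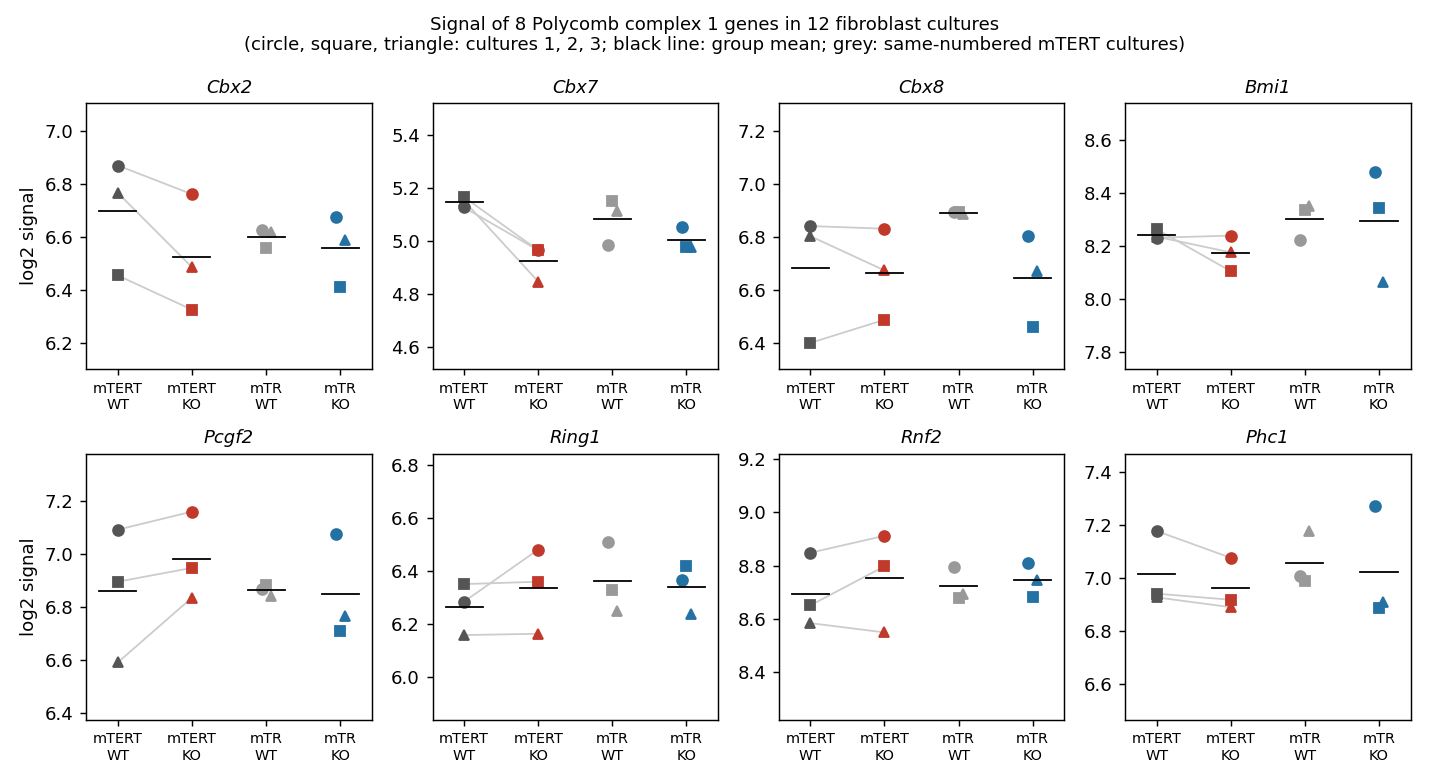
Log2 signal of the 8 genes with a probe set of their own in each culture, with group means as black lines, mTERT pairs joined in grey, and symbols for cultures 1 to 3. Each panel spans 1 log2 unit around its median. Cbx7 separates mTERT KO from mTERT WT, Cbx8 separates mTR WT from mTR KO, and the other panels overlap.

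The ring finger genes Bmi1 and Pcgf2, alternative partners of the RING1 ligases in canonical complexes, gave no call. Bmi1 stood at 8.24, 8.11 and 8.18 in the mTERT knockouts, against 8.23, 8.26 and 8.24 in their wild types. The mTR knockouts read 8.48, 8.34 and 8.06 and the mTR wild types 8.22, 8.33 and 8.35. The mTR KO cultures thus spread on both sides of their wild type, and the difference was −0.008 ± 0.094 (limma, adjusted p = 0.994; 95% interval −0.22 to 0.20). The mTERT pairs of Bmi1 differed by 0.008, −0.16 and −0.059.

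Pcgf2 was the member with the highest pair mean in the mTERT line. The mTERT knockouts read 7.16, 6.95 and 6.84 and their wild types 7.09, 6.90 and 6.59, so that each knockout culture was above its pair partner. The pairs differed by 0.068, 0.052 and 0.24 (mean 0.12 ± 0.11, SD, n = 3 pairs). In the mTR line Pcgf2 stood at 7.08, 6.71 and 6.77 in the knockouts, on both sides of the wild types at 6.87, 6.88 and 6.84. The difference was −0.013 ± 0.13 (limma, adjusted p = 0.993; 95% interval −0.31 to 0.28).

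Ring1 and Rnf2, the paired ubiquitin ligases of the complex, overlapped between genotypes in both lines. Ring1 stood at 6.48, 6.36 and 6.16 in the mTERT knockouts, against 6.28, 6.35 and 6.16 in their wild types, a pair difference of 0.20 in pair 1 and of at most 0.009 in the others. The mTR knockouts read 6.37, 6.42 and 6.24 and the mTR wild types 6.51, 6.33 and 6.25, a difference of −0.022 ± 0.098 (limma, adjusted p = 0.979; 95% interval −0.24 to 0.20). Rnf2, the main ligase in most cell types, stood at 8.91, 8.80 and 8.55 in the mTERT knockouts, against 8.85, 8.65 and 8.58 in their wild types, with the third pair opposite to the others. Rnf2 was 8.81, 8.68 and 8.74 in the mTR knockouts and 8.79, 8.68 and 8.69 in the mTR wild types. Its mTR difference was 0.025 ± 0.099 (limma, adjusted p = 0.976), with a 95% interval from −0.19 to 0.24.

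Phc1, a polyhomeotic protein whose SAM domain polymerises, stood at 7.08, 6.92 and 6.89 in the mTERT knockouts, against 7.18, 6.94 and 6.93 in their wild types. The pairs differed by −0.10, −0.023 and −0.036. The mTR knockouts read 7.27, 6.89 and 6.91 and the mTR wild types 7.01, 6.99 and 7.18, with the highest value in mTR KO culture 1. The mTR difference was −0.036 ± 0.11 (limma, adjusted p = 0.966; 95% interval −0.28 to 0.21).

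Over the whole set, 0 of 8 genes passed a 5% false discovery rate in the mTR comparison with limma, and the unadjusted p was below 0.05 in 0 of 8, or in 1 of 8 (Cbx8) under 5 of the 22 alternatives. Over all 28853 probe sets the share called was 0%, and 5.82% had an unadjusted p below 0.05. The median difference of the 8 was −0.029, with 7 of 8 below 0, against a median of 0.001 over all probe sets and 49.7% below 0. Of these 7, Cbx2, Bmi1, Pcgf2, Ring1 and Phc1 turned sign in at least 1 of the 22 alternatives. Some members also vary together, so nothing is read from the 7 of 8. In the mTERT comparison, which chose Cbx7, the median pair difference was −0.036, with 3 of 8 genes lower in every pair (Cbx2, Cbx7 and Phc1) and 2 of 8 higher in every pair (Pcgf2 and Ring1). Of all probe sets 25.1% had 1 direction in all 3 pairs, and nothing is read from the count of members, since the same contrast chose Cbx7.

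**Figure D3:**
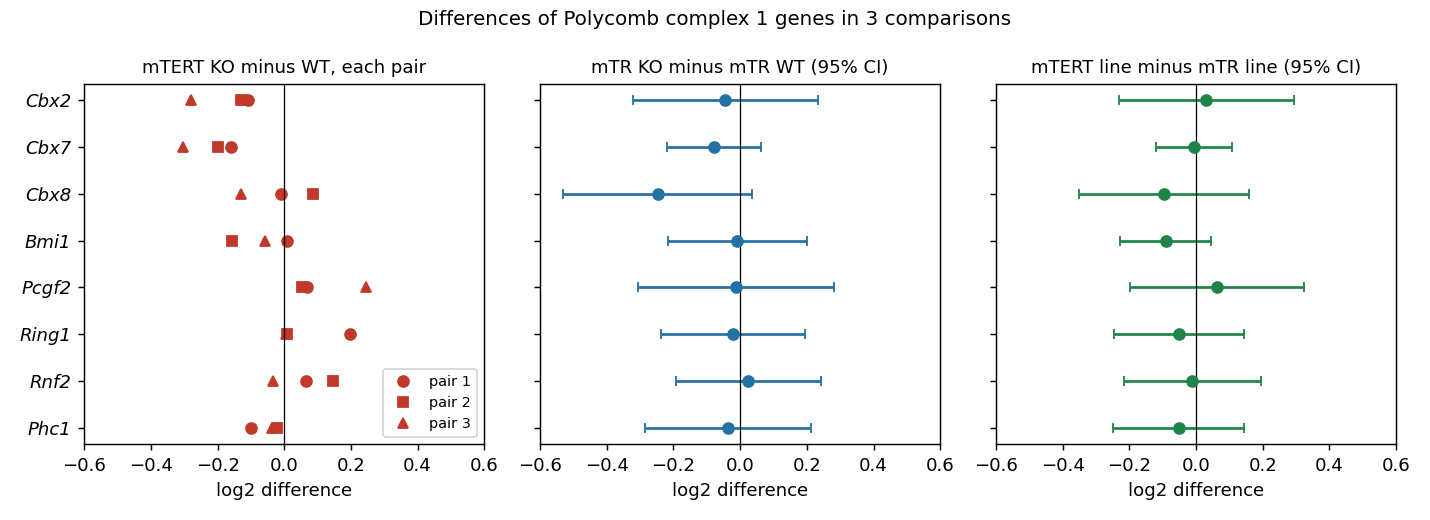
Log2 differences of the 8 genes: each mTERT pair (left, points), mTR KO minus mTR WT (middle) and mTERT line minus mTR line (right), the last 2 as limma estimates with 95% intervals. Every interval in the middle and right panels includes 0, and the Cbx8 interval in the mTR line reaches lowest, to −0.53. The spread behind the middle intervals is pooled over all 4 groups without pairs.

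The pair number accounted for most of the variation of 6 members within the mTERT line. Its share of the sum of squares was 93.2% for Cbx8, 90.6% for Phc1, 88.1% for Rnf2, 83.5% for Pcgf2, 77.2% for Cbx2 and 75.1% for Ring1. The median over all probe sets was 55.6%. Culture pair 2 was the lowest for Cbx2 and Cbx8 in both genotypes, and pair 3 was the lowest for Pcgf2, Ring1, Rnf2 and Phc1 in both. The share was 15.4% for Bmi1 and 5.5% for Cbx7. Genotype accounted for 88.0% of the variation of Cbx7, which follows from its choice and leaves little for the pair number. For Bmi1 genotype accounted for 42.9%, against a median of 7.5% over all probe sets. In the mTERT line the dividing cell markers were highest in pair 1, at 8.35 in wild type and 8.43 in knockout, and macrophage markers were lowest there, and their part in the pair differences was not tested.

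**Figure D4:**
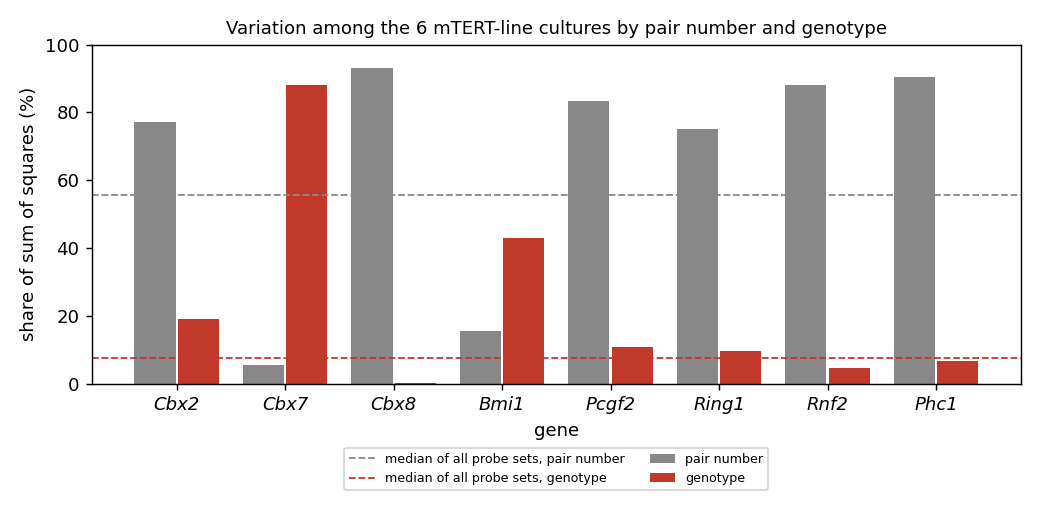
Share of the sum of squares among the 6 mTERT-line cultures (vertical axis, percent) that pair number (grey) and genotype (red) account for in each of the 8 genes, with dashed lines at the medians over all probe sets. Pair number exceeds 75% in 6 genes, and genotype has the larger share in Bmi1 and in Cbx7, where it follows from the choice of the gene.

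The lines were also compared by averaging the knockout and the wild-type culture of each number, which leaves out the difference that chose Cbx7. No member was called between the mTERT and mTR lines with limma, with 0 of 8 at a 5% false discovery rate, 0% of all probe sets called, and 0 of 8 against 4.54% of all probe sets at an unadjusted p below 0.05. Cbx7 differed by −0.006 ± 0.048 (adjusted p = 0.999; 95% interval −0.12 to 0.11). This interval was the narrowest of the 8, but a choice by moderated t favours a small spread, so nothing is read from its width. The value with the smallest p was that of Bmi1, at −0.090 ± 0.058 (adjusted p = 0.999; 95% interval −0.23 to 0.046). The other 6 lay between −0.096 for Cbx8 and 0.063 for Pcgf2.

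Other genes of the same complex and of its variants gave no call either. Of 29 further complex 1 genes with a probe set, among them Phc2, Phc3, Pcgf1, Rybp and Kdm2b, 0 passed in either direction in mTR KO cultures or between the lines with limma. The mTR median was −0.001. E2f6, a repressor found in a variant complex, differed by −0.23 ± 0.087 (adjusted p = 0.839), and Max, a bHLH protein of that variant complex, by −0.15 ± 0.075 (adjusted p = 0.839). Max stood at 8.46, 8.42 and 8.45 in the mTR knockouts, below all of the wild types at 8.54, 8.67 and 8.59. Between the lines the smallest p values belonged to Scmh1, a homologue of sex comb on midleg, at −0.16 ± 0.061 (adjusted p = 0.999), and Rybp, at −0.11 ± 0.063 (adjusted p = 0.999).

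Polycomb repressive complex 2, which lays down the mark that Cbx7 reads, gave 0 calls among 15 genes in either comparison with limma. At an unadjusted p below 0.05 there were 2 higher and 1 lower of 15 in mTR KO cultures, against 5.82% of all probe sets in either direction. This list too was chosen with earlier results known, and nothing is read from the count. Suz12, a core scaffold subunit, stood at 9.57, 9.52 and 9.37 in the mTR knockouts, above all of the wild types at 9.34, 9.21 and 9.34. The difference was 0.19 ± 0.069 (adjusted p = 0.839). Rbbp4, a histone-binding subunit, differed by −0.21 ± 0.081 (adjusted p = 0.839). Jarid2, an accessory subunit that recruits the complex, had the smallest p between the lines, at −0.16 ± 0.050 (adjusted p = 0.999), and Ezh1, a catalytic subunit of resting cells, stood next at −0.13 ± 0.061 (adjusted p = 0.999).

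Of 18 genes that oppose Polycomb silencing, 0 passed in either comparison. Kmt2d, a histone H3 lysine 4 methyltransferase, differed by −0.25 ± 0.097 in mTR KO cultures (limma, adjusted p = 0.839), and Uty, a Y-linked relative of the demethylase Kdm6a, by 0.21 ± 0.095 (adjusted p = 0.839). Between the lines Kmt2c differed by −0.12 ± 0.061 and Kmt2d by −0.11 ± 0.070 (adjusted p = 0.999 for each). The median of the list was −0.027 in mTR KO cultures and −0.057 between the lines, against 0.001 and 0.006 over all probe sets.

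**Figure D5:**
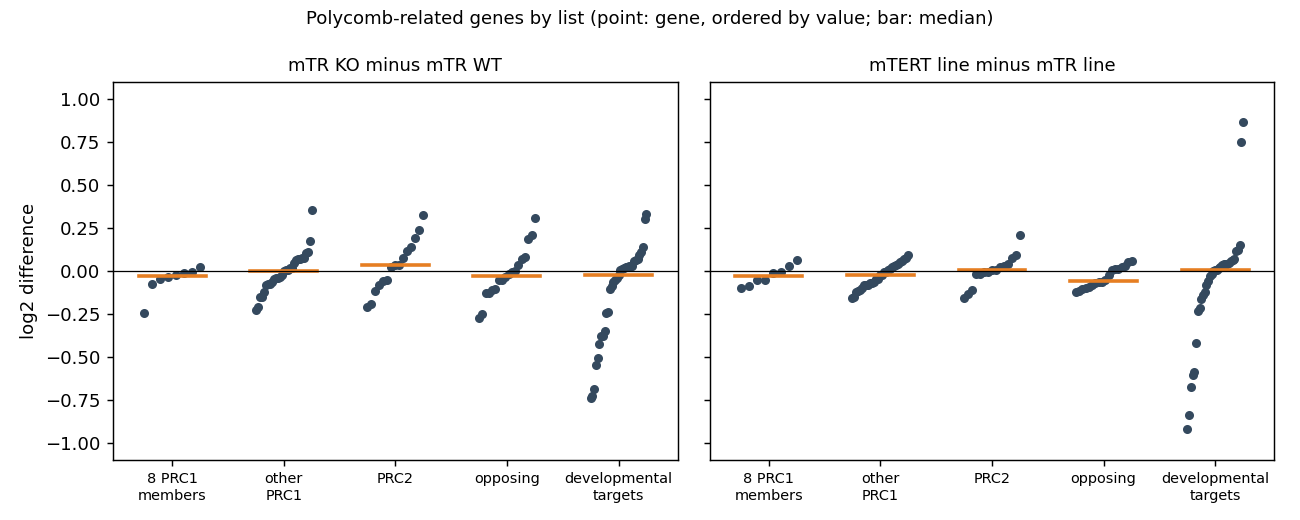
Log2 differences of single genes (points, ordered by value within a list) with the list median (orange bar) for mTR KO minus mTR WT (left) and mTERT line minus mTR line (right). The 8 complex 1 members span −0.25 to 0.025 and −0.096 to 0.063, and the 33 developmental targets span −0.74 to 0.33 and −0.92 to 0.87.

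The best known targets of the complex in fibroblasts gave no call. Cdkn2a, the Ink4a/Arf gene, stood at 6.85, 7.09 and 7.72 in the mTERT knockouts, against 7.06, 7.03 and 7.36 in their wild types. The mTR knockouts read 6.92, 7.44 and 7.44 and the mTR wild types 7.21, 7.41 and 7.31. The groups overlapped in both lines. Its mTR difference was −0.043 ± 0.21 (limma, adjusted p = 0.980), and its mTERT pairs differed by 0.068 ± 0.28 on average (SD, n = 3 pairs). Cdkn2b, the neighbouring Ink4b gene, differed by −0.24 ± 0.31 in mTR KO cultures (adjusted p = 0.910) and by 0.030 ± 0.20 in the mTERT pairs.

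The 33 developmental transcription factors taken as typical Polycomb targets included 20 whose mean lay above the mean background level, and 0 of 33 passed with limma in either comparison. In mTR KO cultures 3 of 33 had an unadjusted p below 0.05, all lower, against 5.82% of all probe sets in either direction, and Hoxd11 and Pax7 had the smallest. Hoxd11, a distal limb gene, differed by −0.74 ± 0.26 (adjusted p = 0.839), and Pax7, a muscle progenitor factor whose mean of 5.07 is close to background, by −0.43 ± 0.16 (adjusted p = 0.839). Between the lines 2 were higher and 4 lower at an unadjusted p below 0.05, against 4.54% of all probe sets in either direction. The list was chosen with earlier results of these data known, so nothing is read from the counts in either comparison. Gata6, a factor of endoderm and heart, differed by 0.87 ± 0.091, mTERT line minus mTR line (adjusted p = 0.196). It read 7.11 to 7.46 in the 6 mTERT-line cultures and 5.89 to 7.02 in the 6 mTR-line cultures. Hoxa11 was at −0.84 ± 0.11 (adjusted p = 0.233), with 4.93 to 5.59 in the mTERT-line and 5.70 to 6.99 in the mTR-line cultures. For both genes the standard error is that of averages by number. The mTR numbers were not taken as pairs, so it depends on how those cultures were matched.

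Genes beside the chromobox loci showed no common direction with them. In the RefSeq order the 4 nearest genes with a probe set on one side of Cbx7 were Apobec3, D730005E14Rik, Dnal4 and Sun2, and on the other Pdgfb, Syngr1, Tab1 and Mgat3. The annotated spans of Cbx7 and Apobec3 overlap. Apobec3 was higher in each mTERT knockout culture than in its pair, by 0.32, 0.072 and 0.17, opposite to Cbx7, and Dnal4 was lower in each, by a mean of −0.088 ± 0.077 (SD, n = 3 pairs). The other 6 had pair differences of both signs. Sun2, a nuclear envelope protein, had the smallest p in mTR KO cultures, at −0.29 ± 0.077 (limma, adjusted p = 0.839).

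Around Cbx2 and Cbx8 the neighbours were Enpp7, Rbfox3, Engase and C1qtnf1 on one side and Tbc1d16, Ccdc40, Gaa and Eif4a3 on the other. C1qtnf1, a secreted C1q-like protein, was higher in all 3 mTERT pairs (mean 0.23 ± 0.056, SD), as were Gaa (mean 0.089 ± 0.044) and Enpp7 (mean 0.049 ± 0.058). Engase, an endoglycosidase of the cytosol, was lower in all 3 (mean −0.096 ± 0.038), as was Rbfox3 (mean −0.044 ± 0.069). With Apobec3 and Dnal4 this makes 7 of 16 neighbours with 1 direction in all pairs, against 25.1% of all probe sets, and the difference was not tested. None of the 16 neighbours of both loci had an adjusted p below 0.839 in mTR KO cultures or below 0.999 between the lines with limma.

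The genes most like Cbx7 in profile over the 12 cultures were sought among 12269 genes above background, as a description that also rests on the mTERT difference that chose Cbx7. Msrb2, a mitochondrial methionine sulfoxide reductase, was closest, with a Pearson correlation of 0.93, followed by Castor2 (0.86), an arginine sensor homologue of the mTOR pathway, Sipa1l2 (0.82), Ndufs6 (0.79), a subunit of respiratory complex I, and Abca2 (0.79), a lipid transporter. All 5 were lower in mTERT KO cultures, by pair means from −0.29 to −0.25. Krtap19-2 (−0.81), Ddx18 (−0.81), an RNA helicase of the nucleolus, and Ccdc74a (−0.80) ran most opposite. No other complex 1 member was among these, and the correlation of Cbx7 with the other 7 ran from −0.14 for Ring1 to 0.40 for Bmi1. Cbx2 and Cbx8, which lie in 1 gene cluster, correlated at 0.75, and Pcgf2 and Rnf2 at 0.78. The cultures share pairs, and each correlation has 12 points, so none is tested.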

How the data were processed

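The deposited log2 values covered 28853 probe sets with 1 column per array. The submitters' processing notes name PLIER, GCOS 1.4 and Affymetrix Expression Console among the authors' tools and give them no order. How arrays were normalized is not given in the sources used. Array quantiles differed by at most 0.084, so the deposited log2 values were used as they stood. Symbols came from the platform annotation (21789 probe sets with 1 symbol, 1621 with several, 5443 with none) and were checked by gene ID against RefSeq (GRCm38.p6), which changed 0. No genome build is named for the array values.

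Group means of all 4 groups were estimated together from the 12 arrays by limma 3.58.1 under R 4.3.3 (8 residual and 3.14 prior degrees of freedom), and the lines were compared on 6 averages of a knockout and a wild-type culture. P-values were adjusted across the whole array by Benjamini-Hochberg, and calls were made at 5%. Intervals are 95% and come from the moderated spread, which in the mTR comparison was pooled over all 4 groups without pairs. Members and lists were chosen with earlier results of these data known. Genes named beyond the members are Cdkn2a, Cdkn2b, Tert, Terc, up to 2 per list and comparison with the smallest p, the 4 neighbours on each side of a locus, and the 5 most and 3 least like Cbx7. Figures used matplotlib 3.10.9. The procedure was tested on simulated data that held no pairs. The planted differences were larger than the mean difference of any member, so smaller ones were not covered.

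The design text calls the wild types littermates of the knockouts. Deviations from the group means correlated at 0.674, 0.733 and 0.790 for same-numbered mTERT cultures and between −0.525 and −0.184 for others, so numbers were taken to pair the mTERT cultures. In the mTR line same-numbered cultures correlated at −0.156, 0.289 and −0.377, and others between −0.239 and 0.372, so they were not taken as pairs. Whether cultures within a group came from separate litters is stated only for the sets, so p-values measure the spread between these cultures. The number of arrays limits the precision.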

Additional observations from a re-analysis of the deposited data

How the results depend on the processing

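In every alternative run, 0 of 8 members passed in the mTR comparison and in the line comparison. The alternatives were a replicate block (fixed or random), quantile normalization, median centring, brighter probe sets only, a trended and robust variance, array weights, the 6 mTR arrays alone, and each array or number left out. With the fixed replicate block Cbx8 differed by −0.25 (limma, adjusted p = 0.538), and the pairing changed no call. Averaging the probe sets of a symbol altered no value, since each member had 1. Calls over all probe sets between the lines numbered 5 with 12 arrays and no block, 1 with a random block, and 0 to 2 with a number left out, against 0. In the mTR comparison they ran from 0 to 3 with an array left out.

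Signs turned for small differences. With 1 array left out the mTR difference ran from −0.0995 to 0.11 for Bmi1, −0.16 to 0.032 for Phc1, −0.12 to 0.056 for Pcgf2, −0.078 to 0.051 for Ring1, −0.10 to 0.029 for Cbx2 and −0.0072 to 0.062 for Rnf2. Array weights gave 0.020 for Ring1 and −0.0056 for Rnf2, and quantile normalization 0.0051 for Bmi1. Between the lines, with a number left out, it ran from −0.020 to 0.013 for Cbx7, −0.071 to 0.14 for Cbx2, −0.18 to 0.019 for Cbx8, −0.040 to 0.17 for Pcgf2, −0.11 to 0.018 for Ring1 and −0.089 to 0.068 for Rnf2, which was 0.0051 after quantile normalization. Cbx7 and Cbx8 kept the direction of their mTR difference in all 22 alternatives, but many of these could not move it. The replicate blocks, the averaged or brighter probe sets and the trended variance returned the same difference. So did the 6 mTR arrays alone and the runs without an mTERT array. The cause of the turned signs was not tested. A signal near background limits the precision of Cbx7.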
